A study of Mus musculus with 4 samples.

Results

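Small nucleolar RNAs (snoRNAs), the genes that carry them and the ribosomal RNA precursor were examined in cultured mouse dorsal root ganglia. The members were all rows of the count tables whose symbol starts with Snora, Snord or Snhg, together with Gas5 and Rn45s. They made up 129 of 23282 gene rows: 36 Snora rows, 76 Snord rows, 16 host genes (15 Snhg genes and Gas5) and Rn45s. Dorsal root ganglia hold the cell bodies of sensory neurons with their glia. They came from C57BL/6 embryos at embryonic day 13 and were kept as explants on coverslips coated with Matrigel. All cultures had growth medium up to day in vitro (DIV) 8 and myelination medium from then on. The 4 groups were unstimulated control explants harvested at 11 DIV or at 19 DIV, and explants harvested on the same days after electrical stimulation (ES) for 1 h at 20 Hz and 50 mV/mm on DIV 10, that is 1 or 9 days before harvest. Each group was 1 library from the pooled RNA of 3 explants, so no difference has a replicate check and no p-value is given for any pair of libraries.

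SnoRNAs are short nucleolar RNAs that guide chemical changes on other RNAs, mainly ribosomal RNA. Box C/D snoRNAs (Snord) guide 2'-O-methylation and carry the short motifs called box C and box D near their ends. Box H/ACA snoRNAs (Snora) guide pseudouridylation and carry an ACA triplet close to the 3' end. Most mammalian snoRNAs are cut out of the introns of a host gene, which is either a protein-coding gene, often one for a ribosomal protein or translation factor, or a non-coding snoRNA host gene (Snhg). Mature snoRNAs have no poly(A) tail, whereas spliced host transcripts do. The libraries here were made with a QuantSeq kit, which starts from poly(A) and reads tags near the 3' ends of transcripts. A read counted on a snoRNA row may therefore come from the host transcript, including its unspliced form, and the counts do not separate these sources.

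The sequences below are those of the snoRNA rows on which the results turn, from the GENCODE M21 transcripts of GRCm38 (the assembly also called mm10), written 5' to 3' as DNA letters. Capitals mark TGATGA (box C) in the first 20 bases and CTGA (box D) in the last 20 bases of Snord sequences, and ACA in the last 8 bases of Snora sequences. The first 3 lie in introns of 1 host gene, 2410006H16Rik, at chr11:62603079-62603150, chr11:62603450-62603521 and chr11:62604515-62604586 on the plus strand, and are shown because reads were unevenly spread among them.
Snord49b: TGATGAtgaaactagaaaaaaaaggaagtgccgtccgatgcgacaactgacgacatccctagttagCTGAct
Snord49a: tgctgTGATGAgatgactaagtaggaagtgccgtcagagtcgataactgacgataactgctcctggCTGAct
Snord65: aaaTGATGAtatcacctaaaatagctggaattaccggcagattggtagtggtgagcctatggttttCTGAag

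The next 2 are the only snoRNA rows with a read in every library. Snord104 lies at chr11:106500993-106501062 (plus strand) and has no annotated host gene, and Snord89 lies at chr1:39548745-39548854 (minus strand) in Gm15832, which has no row in the count tables.
Snord104: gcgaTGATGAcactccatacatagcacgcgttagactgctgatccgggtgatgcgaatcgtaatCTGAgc
Snord89: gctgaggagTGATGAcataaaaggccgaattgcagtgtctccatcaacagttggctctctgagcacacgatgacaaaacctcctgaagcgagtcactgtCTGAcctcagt

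Of the last 3, Snord72 and Snora26 each had reads in only 1 library, an ES library, and Snora30 had reads in both control libraries alone. Snord72 lies at chr15:5118404-5118484 in an intron of Rpl37, Snora26 at chr5:74093530-74093650 inside an exon of Dancr, and Snora30 at chr7:127527874-127528003 in an intron of Srcap, all on the plus strand.
Snord72: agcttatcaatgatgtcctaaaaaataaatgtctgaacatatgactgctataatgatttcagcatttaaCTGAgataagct
Snora26: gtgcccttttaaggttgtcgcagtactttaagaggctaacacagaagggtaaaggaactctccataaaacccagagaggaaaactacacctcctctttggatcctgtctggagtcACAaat
Snora30: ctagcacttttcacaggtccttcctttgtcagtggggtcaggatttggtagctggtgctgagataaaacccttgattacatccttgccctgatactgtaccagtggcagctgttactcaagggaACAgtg

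The motifs were searched on the strand of the RNA only. TGATGA stood in the first 20 bases of 70 of the 98 Snord transcripts in the annotation (71.4%) and of 0 of the 42 Snora transcripts. CTGA stood in the last 20 bases of 96 Snord transcripts (98.0%) and 5 Snora transcripts (11.9%). ACA stood in the last 8 bases of 40 Snora transcripts (95.2%) and 7 Snord transcripts (7.14%). CTGA and ACA thus went with the labels of the rows in nearly all sequences and TGATGA less completely. Snord72 is among those without TGATGA in the window.

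The libraries held 6197537 reads (control at 11 DIV), 5782834 (ES at 11 DIV), 6730614 (control at 19 DIV) and 7830950 (ES at 19 DIV), and 41.4% to 42.9% of all rows had a read in a given library. Levels are CPM, read counts scaled to library size, after TMM scaling for library composition. A count of 0 allows up to 3 reads if reads are independent, which is 0.376 to 0.518 CPM here. Counts differed between libraries by far more than counting error. Between the libraries of a pair, rows with a mean of 500 to 3000 reads differed by 209 (ES at 11 DIV), 236 (ES at 19 DIV), 232 (day in control) and 260 (day in ES) times what counting error gives, as a median of squared differences. Such a factor takes in any effect of ES or day, differences between explants and any dependence between reads, which were not separated. Intervals called spread-adjusted below divide the counts by this factor, cover 95% and still compare libraries, not conditions. "At least" folds put a 0 at 3 reads in that library and are not lower limits once this spread is allowed for. Of the markers of the labelled tissue, the 6 neuronal markers summed to 1918, 2964, 2860 and 935 CPM in control and ES at 11 DIV and control and ES at 19 DIV. Pou4f1 was at 0 in control at 11 DIV and Isl1 at 0 in ES at 19 DIV. Of the 5 Schwann lineage markers, Erbb3 was at 0 in every library but ES at 19 DIV, where S100b was at 0. These 5 markers summed to 2965, 5432, 8373 and 7074 CPM, and the 5 fibroblast markers to 4727, 6426, 8964 and 12342 CPM. Both sums were lowest in control at 11 DIV. In pooled explants, fewer cells of a type and less RNA per cell cannot be told apart.

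Few snoRNA rows had any read. Of the 129 members 31 had a read in some library (24.0%, against 55.3% of all rows), and 98 had none. Among snoRNA rows the number was 14 of 112 (12.5%), with 4 of 36 Snora rows and 10 of 76 Snord rows. Snord53 and Snord58b, each present on 2 rows, were among those without a read. All 16 host genes and Rn45s had reads. Members with a read numbered 19 (control) and 22 (ES) at 11 DIV, and 21 (control) and 22 (ES) at 19 DIV. Of these, 5, 7, 7 and 8 were snoRNA rows. Detection of snoRNA rows was scattered, since 7 of the 14 had reads in exactly 1 library and 2 in all 4. Of 17 rows for other small nuclear RNAs that have no poly(A) tail in their mature form, such as small Cajal body RNAs and Rmrp, 1 had reads: Scarna17, with 290 (control) and 0 (ES) at 11 DIV, and 50 (control) and 0 (ES) at 19 DIV.

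**Figure D1:**
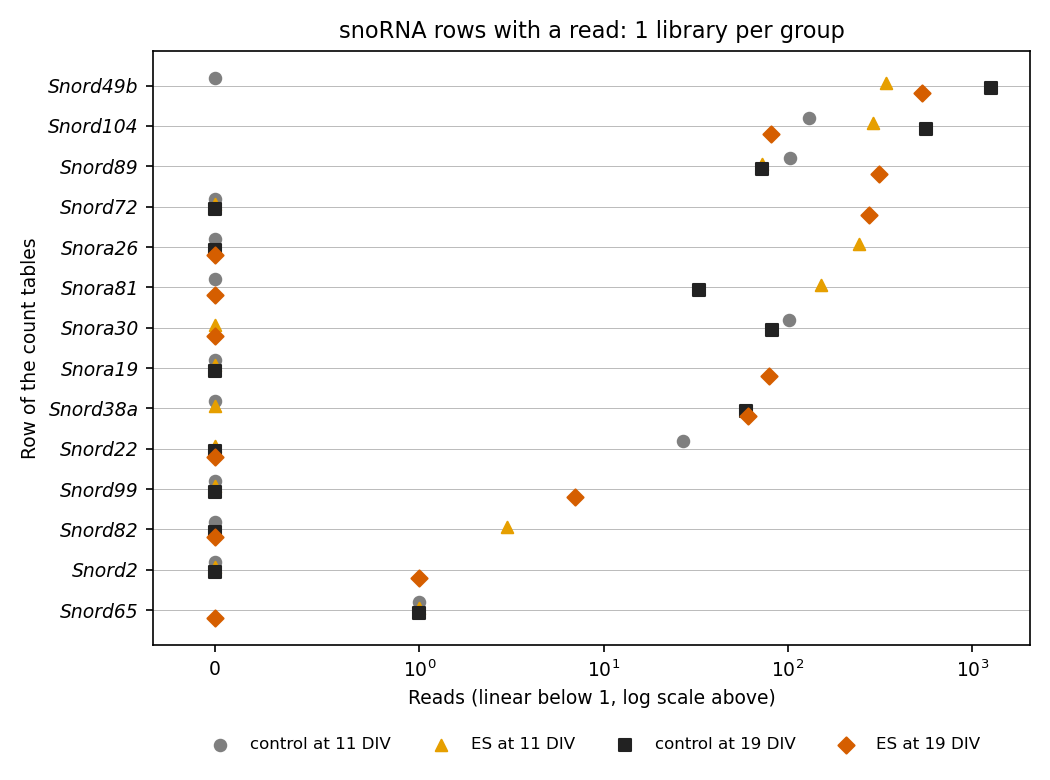
Reads (horizontal axis, linear below 1 and log scale above) of the 14 snoRNA rows with a read, 1 row per line, with 1 marker for each of the 4 libraries. Snord104 and Snord89 have a marker above 0 in all 4 libraries, and 7 rows have 1 marker above 0.

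Snord49b, a box C/D snoRNA, had the most reads of any snoRNA row: 0 (control) and 340 (ES) at 11 DIV, and 1264 (control) and 537 (ES) at 19 DIV. The library without a read was the control at 11 DIV, and both 19 DIV libraries were above both 11 DIV libraries. Its host, the non-coding gene 2410006H16Rik, had 1085, 1146, 960 and 1973 reads in the same order, so Snord49b had 0, 29.7, 132 and 27.2 reads per 100 host reads. The library with the most host reads was thus not the one with the most Snord49b reads. Snord49a, in the same host, had 0 reads in every library, and Snord65 had 1 read in each of 3 libraries and 0 in ES at 19 DIV. Snord49b lies 1657 bases, Snord49a 1286 bases and Snord65 221 bases from the 3' end of the host, so the most read of them was the furthest from it.

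Snord104 had 130 (control) and 289 (ES) reads at 11 DIV, and 564 (control) and 81 (ES) at 19 DIV. It was higher in ES than in control at 11 DIV and lower at 19 DIV. Snord89 had 103, 72, 72 and 313 reads in the same order, with ES at 19 DIV the highest of the 4 and the others close together. Snord72 had 277 reads in ES at 19 DIV and 0 elsewhere, while its host Rpl37, a ribosomal protein gene, had 6153, 4119, 3559 and 3225 reads. The library with Snord72 reads was therefore the one with the fewest Rpl37 reads.

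Snora26, a box H/ACA snoRNA, had 243 reads in ES at 11 DIV and 0 in the other libraries. Dancr, the non-coding gene whose exon holds it, had 0, 243, 35 and 1 reads. The equal counts of 243 are what reads counted on both rows would give, and Snora26 cannot be told apart from Dancr in that library. The remaining snoRNA rows stayed below 200 reads in every library and are named here with their values in view. Snora30 had 101 (control) and 0 (ES) reads at 11 DIV, and 82 (control) and 0 (ES) at 19 DIV, so only control libraries had reads. Srcap, a chromatin remodeller gene and its host, had 189, 0, 0 and 192 reads and did not follow the same order. Snora81 had 151 reads in ES at 11 DIV and 33 in control at 19 DIV, Snora19 had 79 in ES at 19 DIV, and Snord38a had 59 in control and 61 in ES at 19 DIV. Snord22, Snord99, Snord82, Snord65 and Snord2 stayed between 0 and 27 reads.

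Rows without reads stood under host genes of low and high counts alike. For 99 snoRNA rows the annotation gave exactly 1 host with a row of its own. The 12 rows with reads had hosts with a median of 1172 mean reads over the 4 libraries (range 69.75 to 5757.5 for the hosts), and the 87 rows without reads had hosts with a median of 942 (range 0 to 17538). Of the 87 unread rows, 72 had a host with reads in all 4 libraries and 42 a host with a mean of at least 1000 reads. Snora31, in an intron of Tpt1 (translationally controlled tumour protein), had 0 reads although Tpt1 had 23957, 15845, 13290 and 17061. Snord37, in an intron of Eef2 (translation elongation factor), had 0 reads beside 13862, 14292, 15470 and 15241 reads of Eef2. All 4 Snord rows of Rpl13a, a ribosomal protein gene with 9130, 6598, 4892 and 5713 reads, were at 0. By place in the host, 6 of 53 intronic rows had a read (11.3%), 4 of 28 rows inside an exon of a retained-intron transcript (14.3%), 2 of 11 rows inside another exon (18.2%) and 0 of 7 rows lying partly over an exon.

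**Figure D2:**
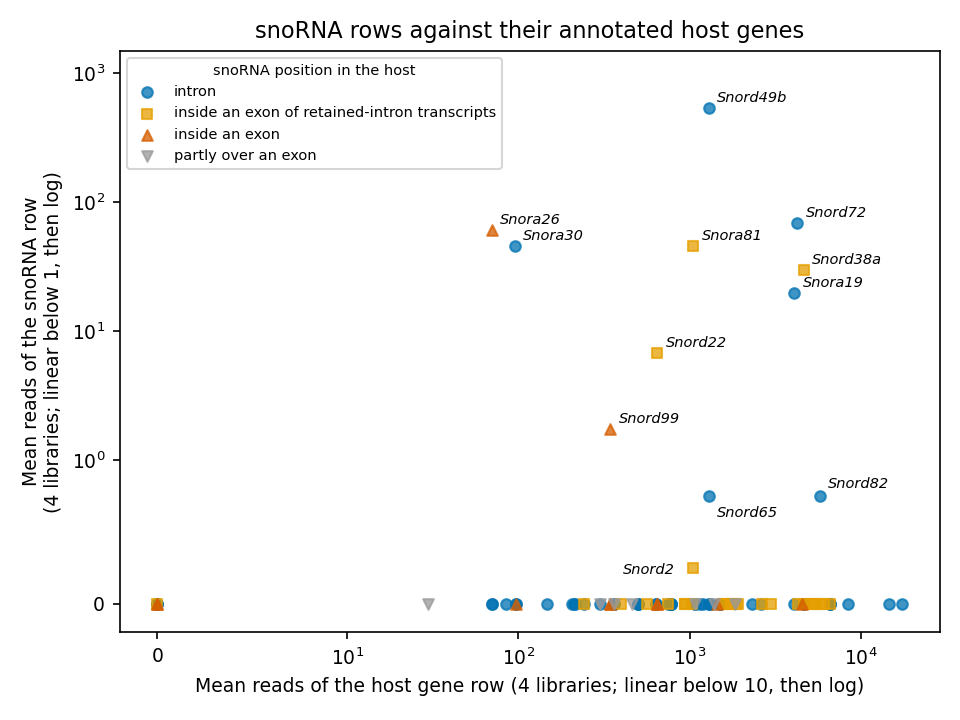
Mean reads over the 4 libraries of each snoRNA row (vertical axis, linear below 1 and then log scale) against those of its host gene row (horizontal axis, linear below 10 and then log scale), with marker shape giving the snoRNA's position in the host. Rows without a read lie along 0 over the whole range of host reads, up to 17538.

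Rn45s, the precursor of the ribosomal RNAs made by RNA polymerase I in the nucleolus, took more reads than all other members together. It is made from many near-identical gene copies, so its count is uncertain. The count also does not show which part of the sequence the reads came from, or whether they came from uncut precursor. It is therefore given as reads on this row and not as a level of the precursor. It had 320992 (control) and 178267 (ES) reads at 11 DIV, and 189732 (control) and 207263 (ES) at 19 DIV. These were 5.18% (exact Clopper-Pearson 95% interval 5.162 to 5.197), 3.08% (3.07 to 3.10), 2.82% (2.81 to 2.83) and 2.65% (2.64 to 2.66) of the reads, and the intervals cover counting error only. Control at 11 DIV was above the other 3 libraries, which lay close together. Against it, Rn45s was 0.543 times as high in ES at 11 DIV (spread-adjusted interval 0.499 to 0.591) and 0.497 times in control at 19 DIV (0.455 to 0.542). These intervals are too narrow, because the spread factor was larger among rows with more reads and Rn45s lies far above the rows it was taken from. With the factor of rows averaging 5000 reads or more, 1021 at 11 DIV and 1700 between days in control, they were 0.449 to 0.656 and 0.390 to 0.631. That factor too is carried beyond most of its rows. Of the 115 such rows 13.0% differed at least as much as Rn45s between ES and control at 11 DIV, and of the 133 rows 27.1% did between days in control. In ES at 19 DIV it was 0.943 times control at 19 DIV and 0.863 times ES at 11 DIV, and with the same kind of factor both intervals included equality (0.826 to 1.08 and 0.713 to 1.04). The marker sums of Schwann cells and fibroblasts were lowest in the library where Rn45s was highest, and their part in its values was not tested.

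Together the 16 host genes made up 0.132% (control) and 0.140% (ES) of the reads at 11 DIV, and 0.140% (control) and 0.0708% (ES) at 19 DIV. Snord rows took 0.00421%, 0.0122%, 0.0291% and 0.0163% in the same order, and Snora rows 0.00163%, 0.00681%, 0.00171% and 0.00101%. Host genes thus had their lowest share in ES at 19 DIV, Snord rows their highest in control at 19 DIV and Snora rows their highest in ES at 11 DIV. The Snord and Snora shares rest on few rows, with Snord49b and Snord104 giving most Snord reads in control at 19 DIV and Snora26 most Snora reads in ES at 11 DIV.

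**Figure D3:**
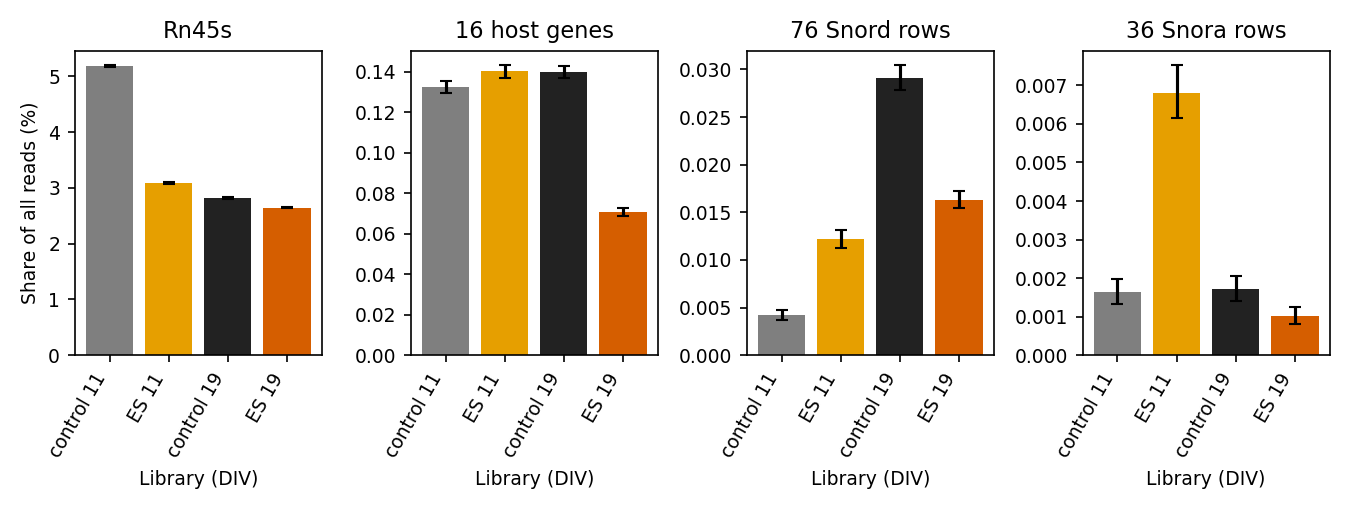
Share of all reads (%, vertical axes, each with its own scale from 0) taken by Rn45s, the 16 host genes, the 76 Snord rows and the 36 Snora rows in each library, with exact 95% counting intervals as error bars. Rn45s is highest in control at 11 DIV (5.18%) and the host genes are lowest in ES at 19 DIV (0.0708%).

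Gas5 (growth arrest specific 5; chr1:161034422-161038539, plus strand) is a non-coding host gene whose short open reading frame exposes its spliced RNA to nonsense-mediated decay, and which is known to accumulate in cells that stop growing. The annotation places 10 small RNA genes inside it. Gas5 had 4080 (control) and 1891 (ES) reads at 11 DIV, and 3320 (control) and 2636 (ES) at 19 DIV, or 704, 319, 482 and 330 CPM. Both control libraries were above both ES libraries. ES was 0.453 times control at 11 DIV (spread-adjusted interval 0.182 to 1.04) and 0.685 times at 19 DIV (0.283 to 1.62), and both intervals included equality. From 11 to 19 DIV it was at 0.684 times in control (0.315 to 1.46) and 1.03 times in ES (0.361 to 3.13). Snord47, its only snoRNA with a row in the tables, had 0 reads.

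Snhg11 (chr2:158375638-158386145, plus strand; protein-coding in the annotation) is a host gene known for its high level in neurons. It had 629 (control) and 2767 (ES) reads at 11 DIV, and 1372 (control) and 112 (ES) at 19 DIV, or 109, 467, 199 and 14.0 CPM. ES was above control at 11 DIV, 4.30-fold (spread-adjusted interval 1.19 to 23.4), and below it at 19 DIV, at 0.0705 times, with an upper spread-adjusted end of 0.997. The neuronal markers were also highest in ES at 11 DIV (2964 CPM) and lowest in ES at 19 DIV (935 CPM). Their part in the Snhg11 values was not tested.

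Snhg8 (chr3:123507552-123508404, minus strand), host of Snora24, had 806 (control) and 988 (ES) reads at 11 DIV, and 1709 (control) and 645 (ES) at 19 DIV. ES was 1.20 times control at 11 DIV (0.247 to 6.29) and 0.326 times at 19 DIV (0.0496 to 1.46). Snhg1 (chr19:8723475-8726443, plus strand), a host of 8 annotated small RNA genes, had 666, 917, 561 and 448 reads in the same order. ES was 1.35 times control at 11 DIV (0.248 to 8.45) and 0.689 times at 19 DIV (0.0494 to 7.81). Both genes were a little higher in ES at 11 DIV and lower in ES at 19 DIV, with equality inside every interval.

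Snhg18 (chr15:32240565-32244662, minus strand), host of Snord123, had 507 (control) and 0 (ES) reads at 11 DIV, and 348 (control) and 0 (ES) at 19 DIV. Reads stood in the control libraries alone, at least 173-fold lower in ES at 11 DIV and at least 134-fold lower at 19 DIV, but the spread-adjusted intervals reached 3.49 and 9.68 times control. Snhg12 (chr4:132308623-132311024, plus strand) had 459, 58, 458 and 403 reads, so ES at 11 DIV stood below the other 3 libraries, at 0.124 times its control with an upper spread-adjusted end of 5.19. Snhg7 (chr2:26637176-26640244 in RefSeq on GRCm38) had 0, 46, 641 and 494 reads and was higher in both 19 DIV libraries. Snhg14, a long transcript whose known role is to silence the paternal copy of Ube3a in neurons, had 50 and 229 reads at 11 DIV in control and ES and 0 in both 19 DIV libraries.

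Snhg3 (chr4:132348014-132353686, minus strand) had 0 (control) and 431 (ES) reads at 11 DIV, and 215 (control) and 2 (ES) at 19 DIV. ES was above control at 11 DIV and below it at 19 DIV. Snhg5, host of Snord50 genes, had 187, 323, 327 and 208 reads, and Snhg6, host of Snord87, had 238, 204, 254 and 149. Over the 4 comparisons the ratios of Snhg5 lay between 0.478 and 1.69 and those of Snhg6 between 0.506 and 0.897. The other host genes stayed below 200 reads in every library, and the most even of them was Snhg20 with 101, 91, 113 and 190. Overlapping genes limit 3 of these values. Snhg3 overlaps Rcc1 on the same strand (400, 418, 0 and 604 reads). Snhg9 lies opposite Rps2 (539, 375, 151 and 523 reads) and Snhg14 opposite Ube3a (1361, 1428, 1228 and 994 reads), and the sources used here do not state whether strand was used. Across the 8 member host genes that hold snoRNA rows with 1 locus in GENCODE M21, 2 of 11 such rows had a read, Snord22 in Snhg1 and Snord99 in Snhg12. That count leaves out Snora16a, which has 2 loci inside Snhg12. It also leaves out Snora17 and Snora74a, which lie within the RefSeq positions of Snhg7 and Snhg4. These rows had 0 reads.

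**Figure D4:**
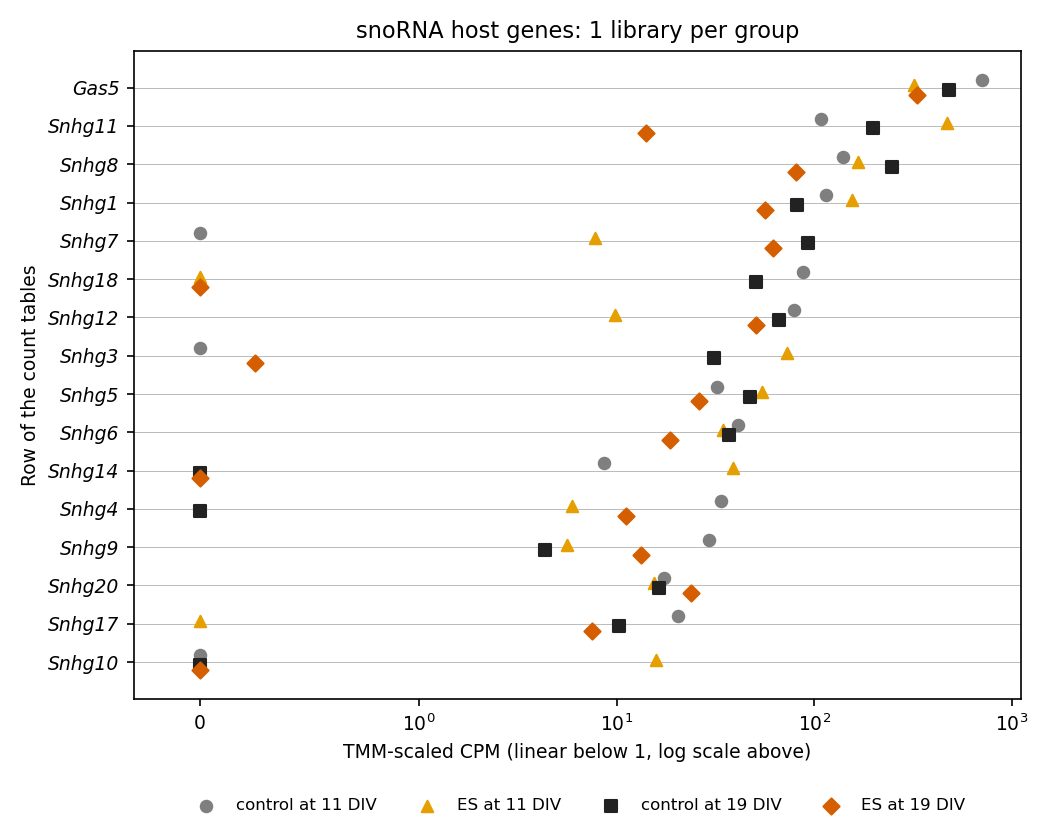
TMM-scaled CPM (horizontal axis, linear below 1 and log scale above) of the 16 host genes, 1 per line, with 1 marker for each of the 4 libraries. Gas5 lies between 319 and 704 CPM, Snhg11 between 14.0 and 467 CPM, and 7 genes have a marker at 0 in at least 1 library.

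The 11 DIV libraries, harvested 1 day after stimulation, gave 22 members with at least 50 reads in the higher of control and ES. A size rule called a row where the CPM differed at least 2-fold, the counting interval excluded equality and the higher library had at least 50 reads. It called 8 members higher in ES (Snhg3, Snord49b, Snora26, Snora81, Snhg10, Snhg14, Snhg11 and Snord104) and 7 lower (Snhg18, Snhg17, Snora30, Snhg12, Snhg4, Snhg9 and Gas5). The same rule called 28.9% of all rows higher and 29.6% lower, so with this spread more than 1 in 2 rows passed it, and the members' counts are to be read against that. In 8 of the 22 members 1 of the libraries was at 0. The spread-adjusted rule, which keeps the 2-fold and 50-read limits but needs equality to lie outside a 99% interval of the divided counts, called 0 members, against 0.102% of all rows higher and 0.214% lower. At a fold minimum of 1.5 it called 1 member, Rn45s, and the share of all rows at that limit is not given here.

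At 19 DIV, 9 days after stimulation, the size rule called 5 members higher in ES (Snord72, Snhg4, Snora19, Snord89 and Snhg9) and 7 lower (Snhg18, Snhg3, Snora30, Snhg11, Snord104, Snhg8 and Snord49b) of 22 with at least 50 reads. The background was 29.4% of all rows higher and 31.3% lower. The spread-adjusted rule called 0 members, against 0.13% of rows in each direction. Of the 18 members with at least 50 reads on both days, Snhg18 and Snora30 were called lower in ES on both, against 8.65% of all such rows, and 0 were called higher on both, against 8.09%. Snhg9, Snhg4, Snhg3, Snhg11, Snord49b and Snord104 were called in opposite directions on the 2 days, 6 of 18, against 18.6% of rows.

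**Figure D5:**
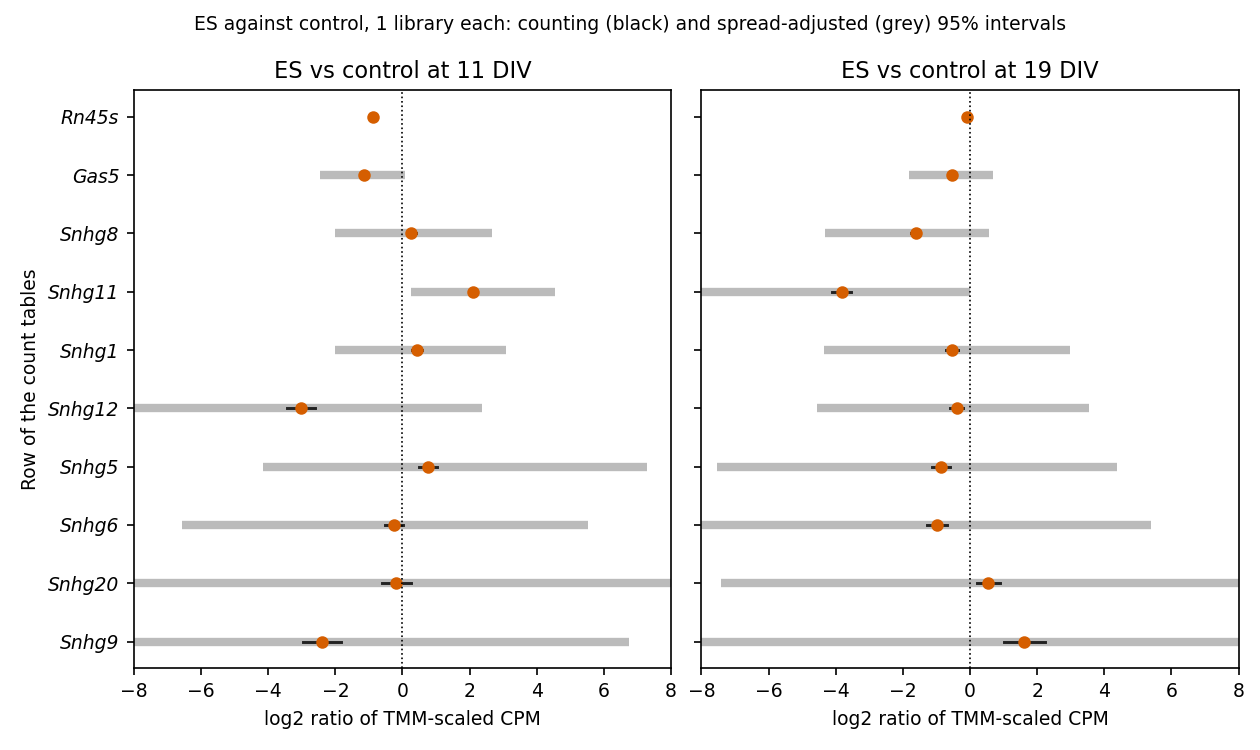
Log2 ratio of CPM in ES against control (horizontal axes) at 11 DIV (left) and 19 DIV (right) for Rn45s and 9 host genes with reads in all 4 libraries, with counting intervals in black and spread-adjusted 95% intervals in grey. Grey bars that reach the edge of a panel go on beyond it, and the bar of Rn45s, which uses the factor of rows with 500 to 3000 mean reads, is too narrow for its count.

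From 11 to 19 DIV in control, the size rule called 5 members higher (Snord49b, Snhg7, Snhg3, Snord38a and Snord104) and 4 lower (Snhg4, Snhg14, Snhg9 and Rn45s) of 21 with at least 50 reads, against 30.9% of all rows higher and 29.8% lower. The spread-adjusted rule called 0 higher and 1 lower, Rn45s, against 0.16% and 0.449% of rows. Rn45s stood just past the 2-fold limit, and the call was lost with DESeq2 size factors (log2 difference -0.99), with total counts (-0.88) and with a 3-fold limit. A difference of this size was common among rows with high counts, as given above. From 11 to 19 DIV in ES, the size rule called 8 members higher (Snord72, Snora19, Snord38a, Snhg17, Snhg7, Snhg12, Snord89 and Snhg9) and 10 lower of 24, against 30.9% and 30.5% of rows. Of the 19 members with at least 50 reads in both day comparisons, Snhg7 and Snord38a were called higher in both (against 9.84% of rows), Snhg14 lower in both (9.14%), and Snord104, Snhg9 and Snhg3 in opposite directions (17.6%). The 10 called lower at 19 DIV in ES were Snhg3, Snora26, Snhg14, Snora81, Snhg10, Snhg11, Snord104, Snhg1, Snhg5 and Snhg8. The spread-adjusted rule called 0 higher and 1 lower, Snhg11, against 0.162% and 0.253% of rows. Snhg11 was at 0.0300 times its 11 DIV level in ES, with an upper spread-adjusted end of 0.386. In control it was 1.83 times its 11 DIV level (0.373 to 12.6), and the difference between those changes was not tested.

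Read across all 4 libraries, 26 members had at least 50 reads in the highest library. Both control libraries exceeded both ES libraries for 6 of them (Gas5, Snhg18, Snhg12, Snhg6, Snhg17 and Snora30) against 14.5% of all 11401 such rows, and both ES libraries exceeded both controls for 0 against 13.6%. Both 11 DIV libraries were higher for Rn45s, Snhg1 and Snhg14 (3 of 26, against 16.1% of rows), and both 19 DIV libraries for Snord49b, Snhg7 and Snord38a (3 of 26, against 15.6%). At least 50 reads in both control libraries and 0 in both ES libraries were found for Snhg18 and Snora30, against 1.1% of rows. The mirror pattern held for 0 members, against 0.895% of rows. Snhg14 had at least 50 reads on day 11 only and Snord38a on day 19 only, patterns of 1.25% and 1.14% of rows.

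A fit of all 4 libraries with ES and day as additive factors (edgeR's quasi-likelihood test with Benjamini-Hochberg adjustment, 1 residual degree of freedom) tested 10050 rows and called 0 for ES and 0 for day at an adjusted p of 0.05 (0.0% each). At an unadjusted p under 0.05 it had 112 rows for ES and 204 for day. Of the 22 members that edgeR tested, 1 was among these for ES, Snhg18, with an adjusted p of 1, and 0 were for day. DESeq2 tested 10014 rows and called 379 for ES and 682 for day. Of its 23 tested members 0 were called for ES and 2 for day. These were Snhg7 (adjusted p = 0.0056, higher at 19 DIV) and Snhg14 (adjusted p = 0.0497, lower at 19 DIV). The share of members called for day was near that of all tested rows. limma with voom called 0 rows for either factor.

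Genes whose products bind or use snoRNAs were examined as lists. The 12 rows for box C/D snoRNP proteins and their assembly factors included Nop58, a core protein, with 1576 (control) and 1105 (ES) reads at 11 DIV, and 1602 (control) and 1734 (ES) at 19 DIV. Nhp2l1, the protein that binds the k-turn of these RNAs, had 1142, 665, 433 and 1120. Size-rule counts of these lists are to be read against 28.9% of all rows higher and 29.6% lower at 11 DIV, and 29.4% and 31.3% at 19 DIV. By that rule 4 of the 12 were higher and 3 lower in ES at 11 DIV, and 3 and 4 of 10 at 19 DIV. Of the 6 box H/ACA snoRNP genes, Nop10 had 1227, 1317, 770 and 1517 reads and Gar1 350, 736, 0 and 558, both core proteins of the complex. In ES 2 were higher and 2 lower at 11 DIV, and 1 and 1 of 4 at 19 DIV. For RNA polymerase I and its factors, which make Rn45s, 1 of 12 was higher and 4 lower in ES at 11 DIV, and 3 and 6 of 13 at 19 DIV. Ubtf, a factor that opens the ribosomal RNA genes, had 429, 305, 841 and 854 reads, and Polr1d, a subunit of the polymerase, 705, 675, 444 and 520. No gene of these 3 lists passed the spread-adjusted rule in any of the 4 comparisons. That rule could call few if any of them. A row with 1264 reads against 0 (Snord49b between days in control) did not pass it, and Nop58 had at most 1734 reads.

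Genes of pre-rRNA processing and ribosome assembly had a median log2 difference of -0.69 in ES at 11 DIV (3 higher and 19 lower of 41 by the size rule, against 28.9% and 29.6% of rows) and of 0.56 at 19 DIV (14 higher and 8 lower of 41, against 29.4% and 31.3%). The median over all rows was 0 in each comparison. From 11 to 19 DIV the median was -0.87 in control (5 higher and 16 lower of 40, against 30.9% and 29.8%) and 0.76 in ES (17 higher and 4 lower of 41, against 30.9% and 30.5%). These comparisons share libraries in pairs, so the medians are not independent of each other. Control at 11 DIV, the library with the most Rn45s reads, was thus the higher one in both comparisons it entered. ES at 19 DIV, the library with the lowest Rn45s share (2.65%), was also the higher one in both of its comparisons. A link between these genes and Rn45s was not tested. Ncl (nucleolin) had 6727, 4853, 4041 and 7409 reads and Npm1 (nucleophosmin) 3497, 2721, 1844 and 2159, and neither passed the spread-adjusted rule in any comparison. The 23 measured genes of nuclear RNA turnover and nonsense-mediated decay, the pathway that acts on Gas5 RNA, had medians of -0.40 in ES at 11 DIV and -0.31 at 19 DIV. From 11 to 19 DIV their medians were -0.63 in control and -0.59 in ES. By the size rule 6 were higher and 9 lower of 23 in ES at 11 DIV, against 28.9% and 29.6% of rows. At 19 DIV 8 were higher and 6 lower of 22, against 29.4% and 31.3%. Skiv2l2, a gene of this list and a helicase that feeds the nuclear exosome, had 1459, 1197, 2094 and 1609 reads.

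Protein-coding snoRNA hosts and ribosomal protein genes, which overlap as lists, had median log2 differences below 0 in both comparisons with control at 11 DIV. In ES against control at 11 DIV the medians were -0.50 over 54 hosts and -0.42 over 81 ribosomal protein genes, and from 11 to 19 DIV in control they were -0.75 and -0.73. These comparisons share the control library at 11 DIV. In ES against control at 19 DIV the medians were 0.02 and 0.01. By the size rule 7 hosts were higher and 11 lower of 54 in ES at 11 DIV. For ribosomal protein genes 2 were higher and 3 lower of 81 there, against 28.9% and 29.6% of all rows. Between days in control 6 hosts were higher and 18 lower of 53, and 1 ribosomal protein gene was higher and 21 lower of 81. The shares of all rows between days in control were 30.9% higher and 29.8% lower. In that comparison the shares of these lists called lower were thus near the background, and those called higher were below it. Under the spread-adjusted rule between days in control 3 hosts were called lower (Tpt1, Rpl23 and Rpl13a) and 5 ribosomal protein genes, among them Rps20 and Rpl23. Tpt1 was at 0.466 times its 11 DIV level (0.331 to 0.650), Rpl23 at 0.476 (0.293 to 0.761), Rpl13a at 0.450 (0.252 to 0.783) and Rps20 at 0.433 (0.274 to 0.672). With the factor of rows averaging 5000 reads or more, the intervals of all 4 included equality (upper ends 1.20, 1.85, 2.26 and 1.53) and none was called. From 11 to 19 DIV in ES the medians were -0.13 for hosts and -0.32 for ribosomal protein genes, and no gene of either list passed that rule. The 16 member host genes had medians of 0.04 (ES at 11 DIV), -0.54 (ES at 19 DIV), -0.20 (day in control) and -0.44 (day in ES). The difference in day effect between control and ES was not tested for any of these lists.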

How the data were processed

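Per the labels' protocols, each of the 4 libraries (1 per group) was a QuantSeq preparation of 500 ng total RNA. The authors deposited raw read counts per gene symbol, 1 table of 23282 rows per library. Bowtie2, bedtools and mm10 are named in the submitters' processing notes. Tool versions, strand use and duplicate handling are not given in the sources. All rows named a gene. Counts were scaled with TMM (edgeR 4.0.16, R 4.3.3) over all rows, and folds are ratios of CPM with exact Clopper-Pearson intervals. Log2 differences used a prior count of 2, and list medians were taken over rows averaging 10 reads or more (11665 of all rows). The additive fit used filterByExpr and all 4 libraries, and DESeq2 1.42.0 and limma 3.58.1 with voom were alternatives. The interval rules and the fit were tested on simulated data. Positions, hosts and sequences came from GENCODE M21, in which 123 member symbols had 1 locus. Intervals and counts were computed in Python 3.11.15 (pandas 2.3.3, scipy 1.17.1). Members with at least 200 reads in their highest library were named with all values, as were the hosts of named snoRNA rows and the 2 most abundant genes of each list, of which 1 is not reported here. The members, lists and rules were chosen with earlier results of these data known.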

Additional observations from a re-analysis of the deposited data

Results flagged for a closer look

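Some members differed between ES and control in opposite directions on the 2 days, each past the size rule. They were 6 of 18 members with at least 50 reads on both days, and 18.6% of all such rows did so, so a reversal by this rule is common. The difference between the 2 changes was not tested in any case. Values are log2 differences with any count under 3 put at 3 reads, including the 2 reads of Snhg3 in ES at 19 DIV. With those 2 reads kept, Snhg3 was at -6.96 in ES against control at 19 DIV and -8.18 between days in ES. Snhg11 was at 2.10 at 11 DIV and -3.83 at 19 DIV. Snord49b was at 6.79 and -1.45, and Snord104 at 1.12 and -3.01. Snhg3 was at 7.13 and -6.38. In the other direction, Snhg9 was at -2.39 and 1.61, and Snhg4 at -2.51 and 4.68. Between 11 and 19 DIV, 3 of 19 members differed in opposite directions in control and in ES, against 17.6% of rows: Snord104 at 1.87 and -2.27, Snhg9 at -2.75 and 1.25, and Snhg3 at 5.91 and -7.60. None of these differences passed the spread-adjusted rule.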

How the results depend on the processing

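Scaling by DESeq2 size factors, by total counts or without Rn45s changed the sign of 0 of the 62 log2 differences of the 17 named members, and shifted them by at most 0.03, 0.13 and 0.0013. The counts of members past the size rule moved by more than 1.5 times in ES against control at 11 DIV with a read minimum of 200 (9, from 15) and between days in control with a fold minimum of 1.5 (14, from 9) or a read minimum of 200 (5). The spread-adjusted count at 11 DIV went from 0 to 1 with a fold minimum of 1.5. The count between days in control went from 1 to 0 with DESeq2 size factors, total counts or a fold minimum of 3. Shares of all rows under these changed settings are not given here. DESeq2 called 2 members for day where edgeR called 0. Without Rn45s in the total, the host genes took 0.140%, 0.145%, 0.144% and 0.0727% of the reads, in which Rn45s reads are left out by construction. Other causes were not tested. No paired analysis was possible because each group had 1 library, and for the same reason no library could be left out of the additive fit. A spread factor taken from rows averaging 5000 reads or more was an alternative chosen after seeing the data. With it Rn45s was still called between days in control and in no other comparison. The call of Snhg11 between days in ES rests on the factor of rows averaging 500 to 3000 reads. Thinning to the smallest total changed the size-rule counts between days from 9 to 7 in control and from 18 to 16 in ES. Most members lie below the 500 mean reads from which the spread factor was taken, so their spread-adjusted intervals are also extrapolated.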

Other observations

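The snoRNA row with the most reads, Snord49b, also held the longest run of A in its sequence, with 8 in a row, against a median longest run of 3 over the 105 snoRNA rows with a sequence. Of the 4 rows with a run of at least 6, Snord49b and Snord72 had reads and Snord42b and Snord123 had none. The 14 rows with a read had a median length of 77.5 bases and the 91 without one a median of 90 bases.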
